A study of Mus musculus with 6 samples.

Results

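Oligodendrocyte precursor cells (OPC) were the 107 cells that the authors' cell annotation places in its OPC cluster, out of 14373 annotated cells, and they were selected by that cluster name alone. They came from 6 single-cell libraries of striatal cells of wild type male C57BL/6 mice (C57BL/6Jax in the study's methods), 3 made on postnatal day 3 (P3) and 3 made at 3 months (3m), all enriched with magnetic beads against the astrocyte surface antigen ACSA2. P3 replicates 1, 2 and 3 held 12, 45 and 37 OPC, and 3m replicates 1, 2 and 3 held 4, 8 and 1. The study was made to follow astrocyte maturation, so OPC were carried along in an astrocyte enrichment and their number does not measure their abundance in the striatum. The OPC of 3m replicate 3 are a single cell.

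OPC are the proliferating, migratory glial cells from which myelinating oligodendrocytes form. They sense platelet-derived growth factor through the receptor *Pdgfra*, carry the proteoglycan NG2 (*Cspg4*), and are specified by the transcription factors *Olig1*, *Olig2* and *Sox10*. On leaving the precursor state a cell passes through a committed stage marked by *Gpr17*, *Bmp4*, *Enpp6* and *Bcas1*, then switches on myelin genes such as *Mbp*. OPC persist in the adult brain as a resident, dividing population.

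Summed over cells, the 94 P3 OPC gave 594714 unique molecular identifiers (UMIs, counts of captured transcripts) and the 13 OPC at 3m gave 70421. Per library the sums ran from 90757 to 289287 at P3 and from 6240 to 31854 and 32327 at 3m. Levels are given in UMIs scaled to the usual CPM (counts per 1000000 UMIs) of the summed cells, in the order replicate 1, 2 and 3. The 3 UMIs taken as the limit of detection correspond to 5.04 CPM over the P3 cells and 42.6 CPM over the 3m cells, so low genes are far less visible at 3m. The median OPC held 5672 UMIs and 2448 genes at P3, and 4453 UMIs and 2341 genes at 3m. The median per library averaged 6304 ± 1563 UMIs at P3 and 6133 ± 2125 at 3m (SD, n = 3), a difference within the spread between libraries (two-sided exact permutation test, p = 1.00; the smallest p that 3 against 3 libraries allow is 0.10). Of 16653 distinct barcode sequences 37 were found in more than 1 library, and 1 of the 107 OPC carried such a barcode. Levels in a sum of cells cannot tell fewer expressing cells from less RNA per cell, and intervals on shares cover counting error only.

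The authors clustered the cells by expression in these data and named the clusters from lineage markers. The marker shares given here therefore describe the OPC label and do not test it. At least 3 of the 5 marker genes *Pdgfra*, *C1ql1*, *Gpr17*, *Neu4* and *Lhfpl3* were detected in 74 of 94 OPC at P3 (78.7%) and in 13 of 13 at 3m. The same was true of 15 of 11094 other annotated cells at P3 (0.135%) and of 0 of 3172 at 3m. No barcode outside the annotation passed this mark, 0 of 772 at P3 and 0 of 1545 at 3m. *Lhfpl3*, a tetraspan membrane protein gene, was detected in 93.6% of P3 OPC (95% Wilson interval 86.8 to 97.0%) and *Pdgfra* in 83.0% (74.1 to 89.2%). By contrast *Pdgfra* was detected in 0.282% of cells of the non-cycling astroglial clusters at P3, at a median of 6764 UMIs per cell.

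Markers of microglia and vessels were nearly absent, and those of neurons and astroglia were not. Of 10 microglia markers, 9 had no UMI in P3 OPC and 8 had none in 3m OPC, with summed levels of 16.8 and 42.6 CPM against 17759 and 34750 CPM in the microglia cluster at the same ages. Of 10 endothelial markers, 7 and 8 had no UMI, and of 10 mural markers 6 and 9. Of 10 neuron markers 9 had a UMI at P3 and 6 at 3m, with summed levels of 242 and 369 CPM, against 5390 CPM in the P3 neuron cluster and 9.08 to 193 CPM in the other clusters compared. Among 22 astroglial genes only 2 had no UMI at P3, whereas 7 had none at 3m, and their summed levels were 11478 and 13533 CPM against 90847 CPM in the largest P3 astrocyte cluster and 121831 CPM in the 3m astrocyte cluster 5.

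**Figure D1:**
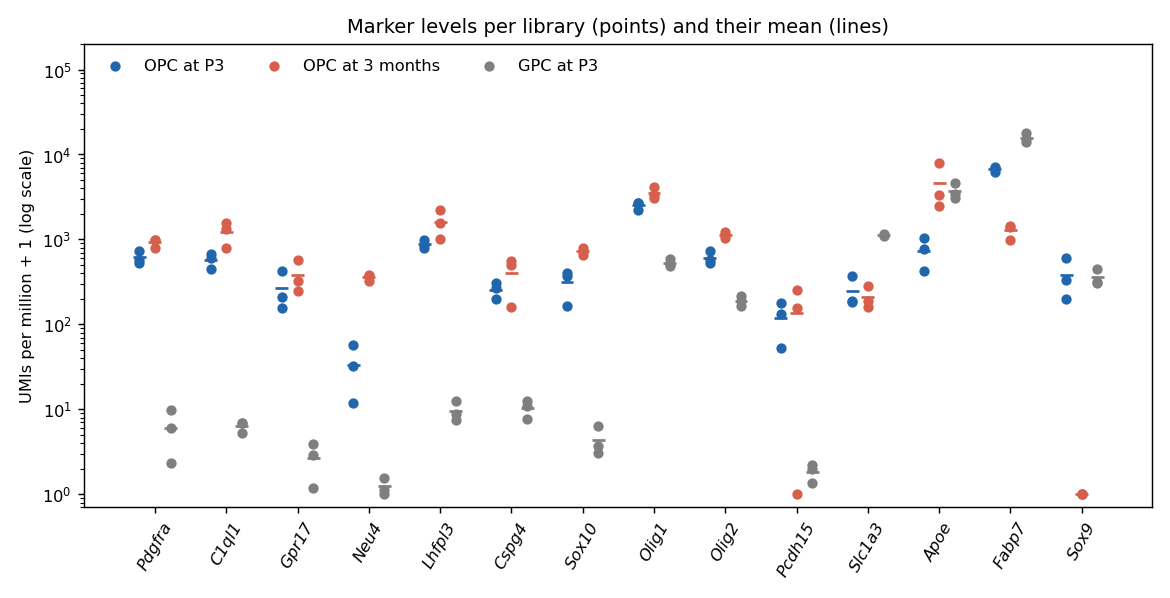
Levels of OPC markers and astroglial genes in OPC and in P3 glial progenitor cells (GPC). The vertical axis is CPM + 1 on a log scale; each point is the sum of 1 library's cells of that class and each line the mean of 3 libraries. *Pdgfra* lies between 532 and 731 CPM in the P3 OPC sums and between 1.31 and 8.82 CPM in the GPC sums, whereas *Sox9* is at 0 in all 3 adult OPC sums.

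Genes most particular to OPC at P3 were ranked by the ratio of their level to the highest level in any of 17 other P3 clusters of at least 20 cells. Clusters were defined on these genes, so the ratios describe the cluster and were not tested. Of 3341 genes at 50 CPM or more, 585 were higher in OPC than in every other cluster, 110 at least 2-fold and 20 at least 10-fold. *Gpr17*, an orphan receptor of the committed stage, led with 262 CPM against 2.76 CPM in the next cluster, a ratio of 95. *Sox10*, the lineage transcription factor required for myelination, followed at 73.1 (353 against 4.83 CPM) and *Pdgfra* at 61 (610 against 10.0 CPM, in a GPC cluster).

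The next ratios belonged to *Vxn* (45.1), *Stk32a* (31.1), the zinc finger factor *Myt1* (27.7), *Lhfpl3* (25.3), *Prkcq* (24.4), *Gal3st1* (23.3), which encodes the enzyme that makes the myelin lipid sulfatide, and *A930009A15Rik* (22.8). *Gsx1*, a homeobox factor of the ventral forebrain, stood at 19.5. *Lims2* (17.1), the matrix protein gene *Matn4* (16.9), *Brinp3* (16.6), the Notch ligand *Dll3* (13.7), *Bcas1* (12.8), the adhesion gene *Dscam* (12.1), *Qpct* (10.6) and *Pllp* (10.3), which encodes a myelin membrane protein, were also among the 20. Of the *Bcas1* UMIs 63.5% lay in 4 cells with *Bmp4* or *Enpp6*. The other 90 P3 OPC held 97.8 CPM of it, against 19.4 CPM in the highest other cluster. Many of these ratios rest on few UMIs in the highest other cluster. It held 1 UMI of *Stk32a* and of *Myt1*, and 2 each of *Vxn*, *Prkcq*, *A930009A15Rik*, *Gsx1* and *Dscam*. *Matn4* had 3 there and *Gpr17* had 4. The sizes and order of such ratios are therefore imprecise. Several textbook markers were less particular in this sort. The ratio was 9.11 for *C1ql1*, a secreted synapse-organising protein gene, 3.16 for *Olig1* and 2.42 for *Olig2*, and it was 0.802 for *Cspg4*, which pericytes also carry (308 CPM there).

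Promoter windows are shown for 2 of the most particular genes, the markers *Pdgfra* (chromosome 5, gene at 75152292 to 75198215, plus strand) and *Lhfpl3* (chromosome 5, gene at 22746059 to 23275597, plus strand; mm10, GENCODE M21). Their 250 bases before the RefSeq start site (GRCm38.p6, plus strand, 5′ to 3′) are given because these genes define the cluster and both windows hold an E-box, a 6-letter motif that basic helix-loop-helix factors such as *Olig2* can bind, in capitals. The *Pdgfra* window is chr5:75152001-75152250 and holds CATCTG, and the *Lhfpl3* window is chr5:22745804-22746053 and holds CAGCTG.
Pdgfra: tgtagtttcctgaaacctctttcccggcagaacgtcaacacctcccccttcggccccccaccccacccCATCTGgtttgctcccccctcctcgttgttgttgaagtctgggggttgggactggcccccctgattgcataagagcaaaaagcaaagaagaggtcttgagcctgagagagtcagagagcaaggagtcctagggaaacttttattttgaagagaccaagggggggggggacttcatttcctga
Lhfpl3: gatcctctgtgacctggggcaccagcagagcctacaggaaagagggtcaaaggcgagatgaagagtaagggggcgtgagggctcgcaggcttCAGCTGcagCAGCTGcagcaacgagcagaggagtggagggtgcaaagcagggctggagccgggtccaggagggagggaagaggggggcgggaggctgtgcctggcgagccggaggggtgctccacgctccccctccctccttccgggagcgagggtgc
Of the 20 genes most particular to OPC, 12 matched the table, with 19 windows. On either strand CAGCTG was found in 2 of these windows against 13.0% of all 32851 windows, CATCTG in 1 against 14.4%, CAGGTG in 3 against 17.2%, and the Sox motifs ACAATG in 3 against 10.7% and ACAAAG in 0 against 16.5%. These shares are descriptions of the letters in the windows.

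P3 OPC were next set beside the 1086 P3 cells of the annotated GPC clusters 8 and 9. GPC cells were deeper, with a class median of 14781 UMIs. Each level was compared within a library and the log2 ratio averaged over 3 libraries. Of 3885 genes reaching 50 CPM in either class, 1151 differed by at least 2-fold in the mean with 1 sign in all 3 libraries (29.6%), 330 of them higher in OPC (8.49%) and 821 higher in GPC (21.1%). Without cells called cycling the split was 392 against 534. Without the trimmed-mean scaling the split was 533 against 474, so the balance of directions depends on the scaling. These classes were separated on the same genes, and no test was made.

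OPC stood above GPC for 9 of 9 precursor markers at level, with a median log2 ratio of 5.90 against -0.40 over all genes. *Pdgfra* was at 573, 532 and 731 CPM in OPC of P3 replicates 1 to 3 and at 8.82, 5.02 and 1.31 CPM in GPC, a mean log2 ratio of 6.63 ± 1.33 (SD, n = 3). *C1ql1* was at 452, 671 and 606 CPM against 5.94, 5.83 and 4.31 CPM. The OPC factors *Olig1* and *Olig2* differed much less, with mean log2 ratios of 1.87 ± 0.20 and 1.29 ± 0.08, since GPC held 529 and 188 CPM of them.

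Beside the markers, the largest ratios towards OPC were those of *Lims2* (6.72), *Gpr17* (6.56), the perineuronal matrix gene *Tnr* (6.23), *Lhfpl3* (6.20), *Pllp* (6.18), the adhesion gene *Cntn1* (5.91), *Sox10* (5.90), *Gal3st1* (5.90), *Pcdh15* (5.82), *Matn4* (5.74), *Vxn* (5.72), *Resp18* (5.64) and the microtubule gene *Stmn4* (5.58). By list, 16 of 29 matrix and adhesion genes at level were higher in OPC and 4 in GPC. The counts were 8 and 0 of 11 committed precursor genes, 6 and 4 of 10 channel and transmitter receptor genes, and 4 and 3 of 11 growth factor receptors. *Dcx*, a microtubule gene of young neurons that precursors also carry, had a mean log2 ratio of 5.50 ± 0.33.

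GPC stood above OPC for 21 of 26 cell cycle genes (2 went the other way) and 18 of 20 astroglial genes (none went the other way), with medians of -3.22 and -2.54. Several leading genes had no UMI in P3 OPC. Their levels in GPC were at least 31.6-fold higher than the OPC limit of detection for the mitotic gene *Pimreg*, 17.1-fold for *Ifitm3*, 13.3-fold for *Sdc4*, 12.7-fold for *Efhd2*, 12.3-fold for *Tagln*, 10.8-fold for *Bcl2l12* and 10.4-fold for *St6galnac5*. The mitotic kinase gene *Aurka* had 1 UMI in OPC against 1805 in GPC, a CPM ratio of 59.9 (95% counting interval 10.7 to 2367), and *Plk1* had 3 against 2821, a ratio of 31.2 (10.7 to 151). The remaining leaders were *Tuba1c* (42.2, 11.7 to 349), *Ezr* (61.9, 11.1 to 2446), *Kif23* (53.8, 9.64 to 2125), and *Grm3* (48.7, 8.72 to 1923). *Gja1*, the astrocyte gap junction gene, had 4 UMIs in OPC, all in 1 cell, and the matricellular gene *Sparcl1* had 16, of which 10 were in 1 cell.

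Astroglial identity genes were not uniformly low in P3 OPC. *Fabp7*, the fatty acid carrier of radial glia, was at 6247, 7014 and 7183 CPM in OPC against 15176, 18133 and 13974 CPM in GPC. *Sox9*, a glial fate factor, was at 198, 335 and 610 CPM in OPC against 313, 308 and 453 CPM in GPC, a mean log2 ratio of -0.41 ± 0.54 with overlapping values. Of the 94 P3 OPC, 56 had UMIs of both *Pdgfra* and *Sox9*. *Sox9* was detected in 64.9% of P3 OPC at a median of 5672 UMIs, against 11.3% of P3 microglia at 6223 UMIs and 17% of the P3 neuronal cluster at 2793 UMIs, cells that should lack it. The deeper P3 endothelial cluster 7 had it in 55.9% of cells at 26510 UMIs. With each cell thinned to 2000 UMIs the shares were 44.0% in OPC, 6.67% in microglia, 19.4% in the neuronal cluster and 7.78% in endothelial cluster 7.

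Cycling was called by a UMI in at least 2 of *Mki67*, *Top2a* and *Cdk1*, after thinning each cell to 2000 UMIs. Of 91 P3 OPC with that depth 4 were called (4.4%, 95% Wilson interval 1.72 to 10.8%), 1 of 12 in replicate 1, 3 of 43 in replicate 2 and 0 of 36 in replicate 3. None of 12 OPC at 3m was called, which allows a share of up to 25.0%. In the same thinned cells the share was 51.1% in GPC, 8.57% in P3 microglia and 0.777% in the non-cycling astroglial clusters at P3. Without thinning it was 7.45% in P3 OPC, 90.3% in GPC and 4.25% in the non-cycling clusters. The difference between ages was -5.10 percentage points (two-sided exact permutation test over libraries, p = 0.400).

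OPC made up 0.477%, 1.24% and 0.734% of annotated cells in P3 replicates 1 to 3 and 0.499%, 0.572% and 0.102% in 3m replicates 1 to 3. The means of 0.817 ± 0.387% and 0.391 ± 0.253% (SD, n = 3) differed by less than the libraries allow to be called (two-sided exact permutation test, p = 0.300). Relative to astroglial cells and OPC alone the sign turned, with a difference of 0.189 percentage points (same test, exact permutation p = 0.7). The part of the ACSA2 enrichment in these shares was not tested.

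A small set of P3 OPC stood apart in the committed stage. *Bmp4*, a secreted signal, or *Enpp6*, a choline phosphodiesterase of newly forming oligodendrocytes, was detected in 4 of the 94 P3 cells, 1 in replicate 2 and 3 in replicate 3. These 4 cells were described after their values were seen. They held no UMI of *Pdgfra*, *Sox9* or *Slc1a3*. They carried 84.0% of all *Mbp* UMIs, 63.5% of *Bcas1*, 59.1% of *Neu4*, 55.3% of *S100b*, and 40.4% each of *Cnp* and *Fyn* found in the 94 cells. The cell of replicate 2, with 14827 UMIs, held 56 of their 89 *Mbp* UMIs and 34 of their 68 *S100b* UMIs. That cell and 1 of replicate 3, with 13220 UMIs, exceeded 2 times the median UMIs of their library's OPC (5649 and 5174). Whether each was a single cell was not tested.

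In CPM, the 4 cells against the other 90 held 2091 against 30.8 of *Mbp* and 2208 against 97.8 of *Bcas1*. *Fyn*, a kinase of process outgrowth, stood at 2960 against 337, and *Cnp*, a myelin enzyme gene, at 1973 against 225. *Gpr17* stood at 1034 against 203. Conversely, *Lhfpl3* was at 235 against 915 CPM, *Cspg4* at 47.0 against 263 and *Fabp7* at 799 against 7433. Most *Mbp* UMIs of the P3 cluster came from these 4 cells.

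**Figure D2:**
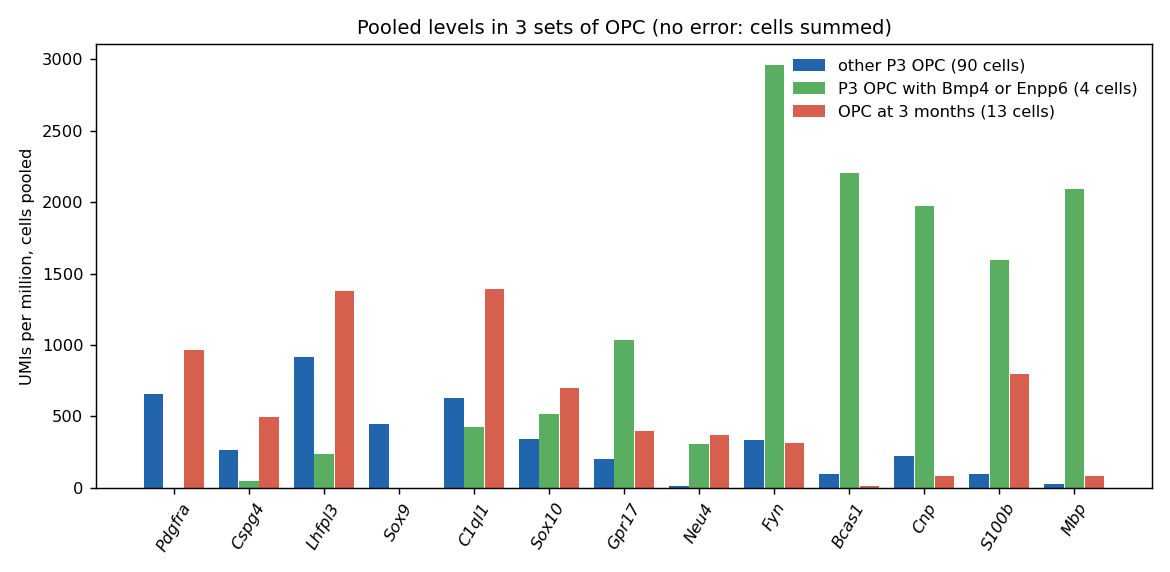
Pooled levels of 13 genes in 3 sets of OPC: the other 90 P3 cells, the 4 P3 cells with a UMI of *Bmp4* or *Enpp6*, and the 13 cells at 3m. The vertical axis is CPM of the summed cells, and bars start at 0 and carry no error; *Mbp* stands at 2091 CPM in the 4 cells and 30.8 CPM in the other 90, while *Pdgfra* is at 0 in the 4 cells.

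No cell of the 13 at 3m had a UMI of *Bmp4* or *Enpp6*, which allows a share of up to 23.1%. *Gpr17* itself reached further than this stage. At P3 it was detected in 62.8% of OPC, and 52 of the 94 cells had both *Pdgfra* and *Gpr17*. *Neu4*, a sialidase gene, was found in 11 P3 cells, all of which had *Gpr17*. At 3m, 10 of 13 cells had both *Pdgfra* and *Neu4*, against 7 of 94 at P3.

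Between ages, 1099 genes with enough UMIs were tested in OPC with the edgeR quasi-likelihood test on library sums. The low-count filter required a minimum level in at least 3 libraries. Genes low in all P3 libraries thus entered only through the adult libraries, and genes low at 3m only through the P3 ones. For *Neu4*, *Sparcl1*, *Vegfa*, *Dst* and *Etv1*, among others, this left only a rise to be found. *Ntrk2*, *Tnr*, *Matn4* and *Slc1a2* also reached that level in 3 libraries only with the adult ones. For *Sox9*, *Bcas1* and *Egr1*, among others, the filter left only a fall to be found. Without the filter 257 genes were called, 45 of them higher at 3m. With an adjusted p of at most 0.05 and at least a 2-fold change, 207 were called (18.8%), 93 higher at 3m (8.46%) and 114 lower (10.4%). The median log2 fold change (3m over P3) over all tested genes was -0.04. The 3m libraries lay wholly above the P3 libraries for 136 genes (12.4%) and wholly below for 232 (21.1%). Per the study's methods each age had 3 independent preparations, each made from several pooled animals. The p-values measure the spread between these libraries, and 1 of the adult sums is a single cell. Without 3m replicate 1 the count was 151, without replicate 2 it was 242 and without replicate 3 it was 289. With every sum thinned to the smallest, only 80 genes could be tested and 27 were called.

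Of 10 precursor markers 9 were tested and 3 rose at 3m, none fell, and the median change was 0.95. *Neu4* was at 11.0, 31.1 and 55.9 CPM at P3 and at 377, 371 and 321 CPM at 3m, a log2 fold change of 3.36 ± 0.45 (SE; edgeR, adjusted p = 1.07e-06). All adult libraries stood well above all P3 libraries. Per cell, *Neu4* was detected in 11.7% at P3 (6.66 to 19.8%) and 76.9% at 3m (49.7 to 91.8%), and in thinned cells in 4.4% (1.72 to 10.8%) and 33.3% (13.8 to 60.9%), where 0.179% of adult astroglial cells had it without thinning.

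*C1ql1* rose from 452, 671 and 606 CPM to 1319, 1578 and 801 CPM (log2 fold change 1.24 ± 0.31, edgeR adjusted p = 0.00307). *Sox10* rose from 165, 373 and 405 CPM to 659, 711 and 801 CPM (1.14 ± 0.35, edgeR adjusted p = 0.0138). Both calls were lost without 3m replicate 1 (0.99 and 0.94) and without 3m replicate 2 (0.80 and 0.87), which left 1 of the 10 markers called. Without a filter on low counts 1 of the 10 was called as well. The other markers were higher in the mean without a call. *Olig2* was at 727, 567 and 522 CPM at P3 and at 1224, 1052 and 1122 CPM at 3m, a log2 fold change of 0.95 with an adjusted p of 0.0239 (edgeR), just under the fold required.

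*Pdgfra*, at 973, 990 and 801 CPM at 3m, had a log2 fold change of 0.68 (edgeR adjusted p = 0.136), *Lhfpl3* of 0.77 (0.0732), *Cspg4* of 0.99 (0.0638), *Olig1* of 0.51 (0.321) and *Gpr17* of 0.63 (0.374). For *Pdgfra* and *Lhfpl3* the libraries of the ages did not overlap, whereas for *Gpr17* and *Cspg4* they did.

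Of 30 lineage transcription factors 14 were tested, with 2 higher and 2 lower at 3m. Over all 1099 tested genes 8.46% were higher and 10.4% lower, and counts this small do not set the list apart. The same shares over all genes stand beside every list of the age comparison. Beside *Sox10*, the ETS factor *Etv1* rose from 154, 118 and 107 CPM to 314, 340 and 321 CPM (1.48 ± 0.43, edgeR adjusted p = 0.00923), a call lost without 3m replicate 1 (1.28) or 2 (1.19) and without P3 replicate 2 (1.44) or 3 (1.38). *Hes5*, a target of Notch signalling, fell from 1895, 1258 and 1048 CPM to 471, 340 and 0 CPM (-1.92 ± 0.40, edgeR adjusted p = 0.000520). *Sox4*, a factor of immature cells, fell from 771, 577 and 620 CPM to 345, 92.8 and 0 CPM (-1.68 ± 0.45, edgeR adjusted p = 0.00532), a call lost without 3m replicate 2.

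*Sox9* had the largest fall of the named genes. It was at 198, 335 and 610 CPM in the P3 libraries and at 0 in all 3 adult libraries, 246 UMIs in 61 of 94 cells against none in 13 cells. Taken at the limit of detection over the adult cells, this is at least 9.71-fold lower (edgeR adjusted p = 8.60e-05). *Sox9* passed the low-count filter only through its P3 levels, so the test could find only a fall. The absence allows a share of up to 23.1% of adult OPC with a UMI, against 64.9% at P3 (54.8 to 73.8%). Adult astroglial cells, with a lower median of 3631 UMIs, had *Sox9* in 68.5%.

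Growth factor receptors were mostly too low to test, 5 of 22. *Ntrk2*, the receptor of brain-derived neurotrophic factor, rose from 176, 142 and 158 CPM to 471, 402 and 481 CPM (1.56 ± 0.40, edgeR adjusted p = 0.00326). That call was lost without 3m replicate 1 (1.23). *Thra*, the thyroid hormone receptor, fell from 309, 394 and 526 CPM to 188, 124 and 0 CPM (-1.5 ± 0.49, edgeR adjusted p = 0.0235). That call was lost with DESeq2 (-1.5), without 3m replicate 2 (-1.60) and without the 4 committed cells (-1.28).

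Of 25 committed precursor genes 9 were tested, with 2 higher (*Neu4* and *Tnr*), 1 lower (*Bcas1*) and a median of -0.25. *Tnr* rose from 110, 142 and 200 CPM to 502, 619 and 321 CPM (1.83 ± 0.39, edgeR adjusted p = 0.000581). *Bcas1* had 148 UMIs at P3 and 1 at 3m, a CPM ratio of 17.5 (95% counting interval 3.1 to 697; edgeR adjusted p = 0.00157). Of its P3 UMIs 63.5% were in the 4 committed cells, and it was not tested without them.

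Myelin genes gave little to test, 1 of 21. *Cnp* fell from 253, 301 and 457 CPM to 126, 61.9 and 0 CPM (-1.94 ± 0.58, edgeR adjusted p = 0.0109), but the call was lost without the 4 committed cells (-1.36). At 3m *Mbp* was detected in 23.1% of OPC (8.18 to 50.3%), at a median of 4453 UMIs. Adult microglia, which should lack it, had it in 26.7% at a median of 3940 UMIs. The adult OPC share is therefore read as background. *Pllp* rose from 132, 256 and 363 CPM to 1099, 1237 and 1763 CPM (2.31 ± 0.33, edgeR adjusted p = 2.10e-06), a level like the 1264 and 1123 CPM of the adult oligodendrocyte clusters.

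Of 32 matrix and adhesion genes 20 were tested, 9 rose and none fell, with a median of 1.03 against -0.04 over all genes. *Cspg5*, a neural proteoglycan gene, went from 2038, 1690 and 1677 CPM to 4960, 3588 and 3846 CPM (1.22 ± 0.33, edgeR adjusted p = 0.00521). *Matn4* went from 242, 114 and 144 CPM to 722, 588 and 321 CPM (2.04 ± 0.40, edgeR adjusted p = 0.000186), and *Cntn1* from 397, 501 and 512 CPM to 973, 1021 and 1442 CPM (1.21 ± 0.31, edgeR adjusted p = 0.00392). The others called included *Tnr*, *C1ql1*, *Vcan* (1.49), *Opcml* (1.20) and *Tspan7* (1.30). The count of this list depended on single libraries: it was 2 without 3m replicate 1 and 3 without 3m replicate 2, and 0 without a filter on low counts. The *Vcan* call was also lost with DESeq2 (1.33) and the *Tspan7* call with the replicate number as a block (1.15).

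Channel and transmitter receptor genes were tested in 4 of 42 cases, of which 3 rose: the AMPA receptor gene *Gria3* (1.59), its auxiliary subunit gene *Cacng4* (1.30) and *Kcnip3* (1.40). All 3 calls were lost on leaving out at least 1 of the adult libraries. Without a filter on low counts 0 of 40 genes of this list were called. Cell cycle genes were tested in 3 of 31 cases. *Ccnd1*, a D-type cyclin gene, rose from 286, 249 and 331 CPM to 1036, 773 and 1282 CPM (1.78 ± 0.33, edgeR adjusted p = 0.000128). None of the adult cells was called cycling. *Mki67* had 5 UMIs in 2 adult cells, and *Top2a* and *Cdk1* had none.

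**Figure D3:**
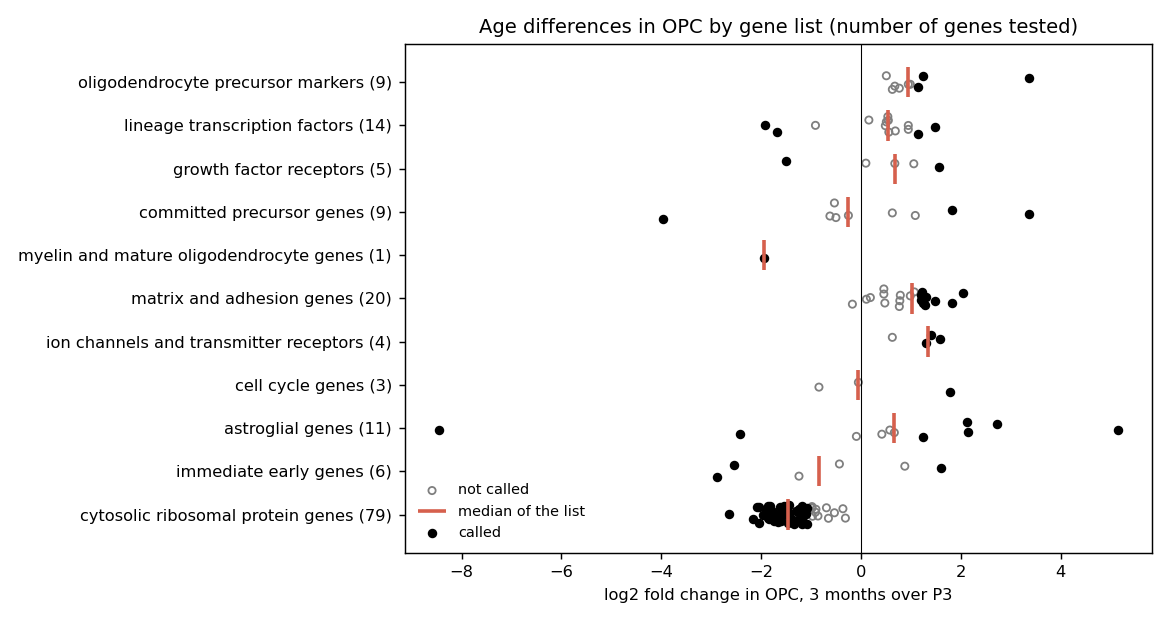
Age changes of the gene lists in OPC. The horizontal axis is the log2 fold change (3m over P3), each point is a tested gene, filled where called, and the bar is the list median (0.95 for precursor markers, 1.03 for matrix and adhesion genes, -1.46 for ribosomal protein genes). The point near -8 is *Sox9*, whose fitted value rests on 0 adult UMIs.

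Astroglial genes split in both directions, 5 higher and 2 lower of 11 tested among 22. *Sparcl1*, at 11.0, 0 and 69.9 CPM at P3 and 1224, 588 and 1442 CPM at 3m, had the largest rise of all named genes (5.16 ± 0.52, edgeR adjusted p = 8.35e-10). *Apoe*, the lipid carrier, rose from 1025, 422 and 764 CPM to 7974, 2506 and 3365 CPM (2.72 ± 0.39, edgeR adjusted p = 2.10e-06). All adult libraries lay above all P3 libraries in both.

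*S100b*, a calcium-binding protein gene, rose from 22, 204 and 289 CPM to 1005, 526 and 1122 CPM (2.14 ± 0.41, edgeR adjusted p = 0.000186). *Slc1a2*, the glutamate transporter gene, rose from 220, 93.3 and 121 CPM to 659, 464 and 481 CPM (2.12 ± 0.41, edgeR adjusted p = 0.000186), and *Ndrg2* rose by 1.24, a call lost with DESeq2 (1.19), under the stricter cell filter (1.12) and without 3m replicate 1 (0.92) or 2 (0.94) or P3 replicate 2 (0.96). *Fabp7* fell to 1413, 990 and 1442 CPM (-2.42 ± 0.39, edgeR adjusted p = 1.67e-05). Free RNA of other cells can add to such values. The 22 astroglial genes summed to 13533 CPM in adult OPC, 81446 CPM in adult microglia, and 10318 and 6231 CPM in the oligodendrocyte clusters. The list holds genes that are not limited to astroglia, such as *Apoe*, so these sums do not by themselves measure astroglial RNA. Summed over adult OPC, *Apoe* was at 5055 CPM against 24666 in astrocyte cluster 5, 12052 in microglia, 2395 and 2204 in oligodendrocyte clusters and 1376 in endothelial cluster 17. *Sparcl1* was at 951 CPM against 6037, 86.1, 211 and 48.1, and 1170 in the same order. In adult OPC 7 of the 22 astroglial genes had no UMI and 15 had at least 1. *Gja1*, *Aqp4* and *Aldh1l1*, defining astrocyte genes, had none, where the limit of detection was 42.6 CPM. Astrocyte cluster 5 held 1394 CPM of *Gja1*. *Slc1a3*, also an astroglial gene, was detected in 61.5% of adult OPC. The part of RNA from other cells in these rises was not tested.

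Other genes among the 10 largest rises were *Vegfa*, an angiogenic factor gene, at 11.0, 10.4 and 37.3 CPM at P3 and 251, 186 and 321 CPM at 3m (3.50 ± 0.49, edgeR adjusted p = 1.91e-06), and *Dst*, a cytoskeletal linker gene, at 33.1, 58.8 and 65.2 against 314, 433 and 321 CPM (2.75 ± 0.43, edgeR adjusted p = 1.09e-05). *Prnp* rose by 2.34, the POU factor gene *Pou3f1* by 2.38 and *Tmem100* by 2.24. Each of these was also called under every alternative in which it could be tested. *Vegfa* and *Dst* passed the low-count filter of the main fit only through their adult levels. *Pcp4* was called at 2.42 but was at 1224, 278 and 321 CPM at 3m, and without 3m replicate 1 it was at 0.89 and no longer called.

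**Figure D4:**
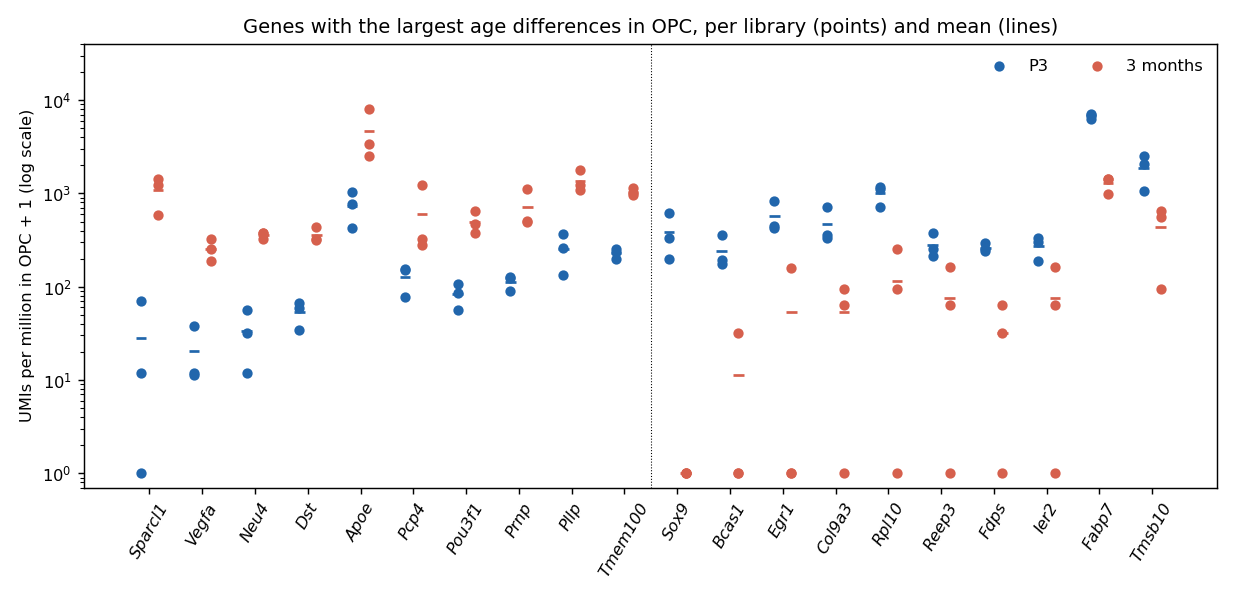
Levels by library of the 20 genes named for the largest age changes in OPC, higher at 3m on the left and lower on the right of the dotted line. The vertical axis is CPM + 1 on a log scale, each point is the sum of 1 library's OPC and each line the mean of 3; for all 10 on the left the adult points lie above the P3 points, and for *Sox9* all adult points lie at 0.

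Of 9 immediate early genes, which respond within minutes to signals and to cell handling, 6 were tested, 2 fell and 1 rose. *Egr1* fell from 826, 422 and 447 CPM to 157, 0 and 0 CPM (-2.89 ± 0.62, edgeR adjusted p = 0.000632). *Ier2* had 152 UMIs at P3 and 3 at 3m (CPM ratio 6.00, 2.01 to 29.4), a call lost without 3m replicate 1. *Jun* moved the other way, to 1067, 773 and 160 CPM (1.60 ± 0.37, edgeR adjusted p = 0.00141), although 3m replicate 3 lay below all P3 libraries, and the call was lost without 3m replicate 1 (1.02). Other large falls were spread over unrelated roles. *Tmsb10*, an actin-binding peptide gene, fell from 1058, 2534 and 2073 CPM to 94.2, 557 and 641 CPM (-2.32 ± 0.43, edgeR adjusted p = 0.000128). *Col9a3*, a cartilage-type collagen gene, went from 331, 353 and 708 CPM to 94.2, 61.9 and 0 CPM (-2.66 ± 0.59, edgeR adjusted p = 0.000967). *Reep3* and *Fdps*, the latter a cholesterol synthesis enzyme gene, each had 3 adult UMIs, with ratios of 6.51 (2.19 to 31.9) and 6.28 (2.11 to 30.8), and the *Reep3* call was lost without 3m replicate 1.

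Most cytosolic ribosomal protein genes fell. Of 83 listed, 79 were tested, 67 fell and none rose, with a median of -1.46. With every sum thinned to the smallest, 5 of 38 were called and the median was -0.60. As a share of UMIs they made up 17.7%, 19.9% and 14.4% in P3 OPC and 6.05%, 7.0% and 6.11% in adult OPC. In astroglial cells of the same libraries the share was 11.7%, 14.4% and 11.0% at P3 and 3.89%, 6.07% and 4.31% at 3m, with 59 of 80 genes lower. *Rpl10* was at 1113, 1182 and 708 CPM and then at 251, 92.8 and 0 CPM (-2.64 ± 0.47, edgeR adjusted p = 6.90e-05). The median mitochondrial share per OPC was 5.12%, 2.55% and 3.14% in the 3m libraries and 2.69%, 2.08% and 1.53% in the P3 libraries. These values overlapped between the ages, and that of 3m replicate 3 is from 1 cell. The part of the mitochondrial share in the ribosomal falls was not tested.

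Whether OPC changed with age differently from astroglial cells was tested by the interaction of class and age over library sums with the library as a block. Of 9096 genes 549 differed (6.04%), 166 with a higher age change in OPC and 383 with a lower one. The direction of this balance depended on scaling, with a median difference of -0.56 under the trimmed-mean scaling, -0.27 under size factors and 0.41 without scaling. The share of higher calls was 30.2%, 48.0% and 86.5%. *Olig2*, *Ccnd1*, *Fos* and *Mbp* had the same sign and call under all 3. The astroglial class was not made of the same clusters at both ages. Of its 8874 P3 cells 1086 were GPC, which had no cells at 3m, and 1111 of its 1118 adult cells were in 2 clusters of adult astrocytes.

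*Olig2* and *Ccnd1* had higher age changes in OPC than in astroglial cells. *Olig2* was at 605 ± 108 CPM at P3 and 1133 ± 86.8 at 3m in OPC (SD, n = 3), and at 126 ± 27.6 and 11.3 ± 7.76 CPM in astroglial cells, a difference of log2 fold changes of 3.26 ± 0.33 (edgeR adjusted p = 1.23e-19). *Ccnd1* was at 289 ± 41.0 and 1030 ± 254 CPM in OPC and at 131 ± 26.1 and 2.47 ± 1.62 CPM in astroglial cells, a difference of 6.18 ± 0.45 (edgeR adjusted p = 6.89e-40). By list, 6 of 29 cell cycle genes and 7 of 8 immediate early genes had the higher age change in OPC and none the lower one. With astroglial sums that leave out the GPC clusters, an alternative chosen after seeing the data, the counts were 3 and 6, and the differences were 3.04 for *Olig2* and 6.08 for *Ccnd1*.

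*Fos* was at 708 ± 236 and 460 ± 155 CPM in OPC and at 1713 ± 304 and 9.33 ± 4.84 CPM in astroglial cells, a difference of 5.97 ± 0.53 (edgeR adjusted p = 5.03e-26). Conversely, *Mbp* was at 1.24 ± 0.102 and 915 ± 408 CPM in astroglial cells, and at 144 ± 106 and 62.2 ± 61.9 CPM in OPC, a difference of -11.60 ± 0.47 (edgeR adjusted p = 2.72e-129). That astroglial level lay largely in the adult astroglial cluster 14, at 3323 CPM, and the part of oligodendrocyte RNA was not tested.

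The largest differences in each direction belonged to genes without a UMI in 1 group of cells, and are given as UMIs with no fold. *Nxph1*, a neurexin ligand gene, went from 104 to 32 UMIs in OPC and from 1477 to 0 in astroglial cells. *Mki67* went from 14 to 5 and from 6707 to 0, and 426 of its P3 astroglial UMIs lay outside the GPC clusters. *Fosb* went from 11 to 10 and from 3016 to 0, and *Igfbp3* from 29 to 10 and from 1252 to 0. In the other direction, *S1pr1*, a lysolipid receptor gene, went from 24 to 0 UMIs in OPC and from 21764 to 6298 in astroglial cells, *Sox9* from 246 to 0 and from 49203 to 2070, and *Gria1* reached 0 from 7 UMIs in OPC.

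**Figure D5:**
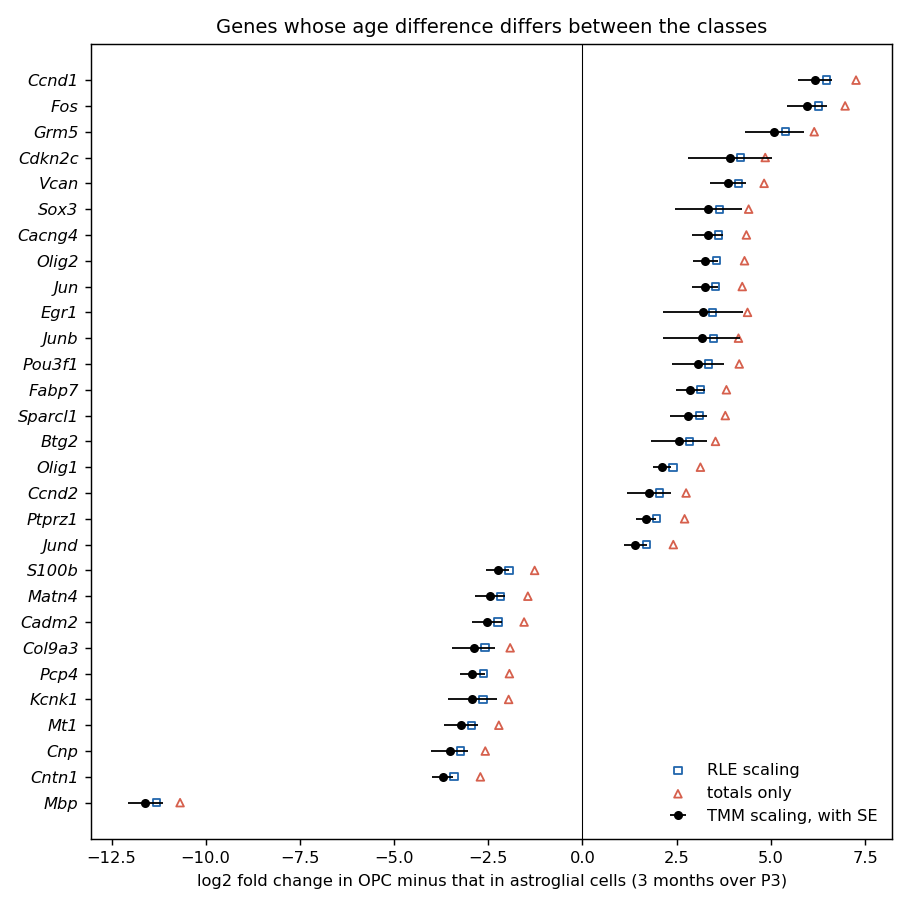
Difference of age changes, OPC minus astroglial cells, for 29 genes called with 1 sign under all 3 scalings. The horizontal axis is the difference of log2 fold changes (3m over P3); filled points carry the SE of the trimmed-mean fit, and open symbols are the fits with size factors and with totals only. *Ccnd1* lies furthest right, at 6.18, and *Mbp* furthest left, at -11.60.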

How the data were processed

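Single-cell RNA-seq (10x Chromium 3′ chemistry) was available for 6 libraries, 3 at P3 and 3 at 3 months, made from striatal cells after ACSA2 magnetic enrichment. The authors aligned reads to mm10 with Cell Ranger, kept barcodes with more than 500 genes and less than 10% mitochondrial UMIs, clustered them in Seurat (3.1.1 in the submitters' processing notes, a later version in the study's methods) and deposited 1 table of raw UMI counts (32285 genes) and a table of cell annotation. Cells without a cluster name were left out of every class. Doublet treatment is not given in the sources used here.

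OPC were the cells of the annotated OPC cluster. Counts were summed per library and class (Python 3.11.15). The edgeR 4.0.16 quasi-likelihood test (R 4.3.3; TMM scaling, low-count filter, Benjamini-Hochberg adjustment) compared the ages, and the interaction of class and age used the library as a block. A call needed an adjusted p of at most 0.05 and a log2 change of at least 1. P3 OPC and GPC were compared without a test (prior count of 2, level of 50 CPM). Shares and medians used two-sided exact permutation tests over libraries, and shares of cells Wilson 95% intervals. Where a group had no UMI, 3 UMIs were taken as its limit. Named genes were the 10 largest called changes per direction between ages and per direction for the interaction, the 15 largest ratios per direction against GPC, the 20 genes most particular to OPC, and members of fixed lists. Predicted genes were left out of the age lists. The members and the gene lists were chosen with earlier results of these data known. A few results are not reported here. The model scripts were tested on simulated data. Alternatives covered scaling, filters, DESeq2 1.42.0, thinning, cell filters, the replicate number as a block, and leaving out each library, and 3 more, which leave out P3 OPC with *Bmp4* or *Enpp6*, the P3 OPC with most *Fabp7* UMIs, and GPC from the astroglial sums, were added after seeing the data.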

Additional observations from a re-analysis of the deposited data

Results flagged for a closer look

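For 29 genes of the named lists the age change differed between OPC and astroglial cells, by the edgeR interaction test with 1 sign under all 3 scalings and more than 3 UMIs in each group. Values are differences of log2 fold changes (3m over P3), OPC minus astroglial cells. Among immediate early genes the change was higher in OPC for *Fos* (5.97), *Jun* (3.25), *Egr1* (3.2), *Junb* (3.16), *Btg2* (2.57) and *Jund* (1.40). Astroglial *Jun* was at 658 ± 87.7 CPM at P3 and 112 ± 39.3 CPM at 3m (SD, n = 3), whereas OPC held 290 ± 107 and 667 ± 463 CPM. *Egr1* fell in both classes, to 52.3 ± 90.6 CPM in OPC and 3.62 ± 4.15 CPM in astroglial cells.

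Among cell cycle genes the change was higher in OPC for *Ccnd1* (6.18), *Cdkn2c* (3.91) and *Ccnd2* (1.76). Among lineage and neural transcription factors it was higher for *Sox3* (3.34), *Olig2* (3.26), *Pou3f1* (3.06) and *Olig1* (2.12). *Sox3* was at 84.2 ± 21.0 and 126 ± 33.1 CPM in OPC and at 39.2 ± 3.48 and 2.61 ± 0.838 CPM in astroglial cells. Among receptors, channels and matrix genes it was higher for the glutamate receptor gene *Grm5* (5.09), *Vcan* (3.86), *Cacng4* (3.32) and *Ptprz1* (1.69). *Fabp7* (2.86) fell in both classes and *Sparcl1* (2.81) rose in both.

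The change was lower in OPC for the myelin genes *Mbp* (-11.60) and *Cnp* (-3.52), for the adhesion and matrix genes *Cntn1* (-3.71), *Col9a3* (-2.89), *Cadm2* (-2.53) and *Matn4* (-2.45), and for *Mt1* (-3.22), *Pcp4* (-2.92), *Kcnk1* (-2.92) and *S100b* (-2.25). Of these, *Cntn1*, *Matn4*, *Pcp4* and *S100b* rose in OPC and rose by more in astroglial cells from a lower P3 level. *Matn4*, for instance, was at 4.75 ± 0.177 CPM at P3 and 54.4 ± 6.36 CPM at 3m in astroglial cells against 167 ± 67.1 and 543 ± 204 CPM in OPC. *Mt1*, a metallothionein gene, reached 11959 ± 1570 CPM in adult astroglial cells and 401 ± 229 CPM in adult OPC. The part of astrocyte or oligodendrocyte RNA from other cells in these differences was not tested. Without 1 of the libraries 8 of the 29 lost the call: *Egr1*, *Junb*, *Btg2* and *Ccnd2* without 3m replicate 1 (-8.62, 1.18, 1.97 and 1.06), *Jund* without 3m replicate 2 (0.71), *Ccnd2* without 3m replicate 2 (1.84), *Cdkn2c* (3.82 and 3.66) and *Sox3* (3.16 and 3.22) without 3m replicate 1 or 2, *Cdkn2c* without P3 replicate 2 (3.53), and *Kcnk1* without P3 replicate 3 (-2.56). *Egr1*, *Junb* and *Ccnd2* also lost it without any 1 of the P3 libraries, and *Egr1* with the replicate number as a block (2.78) and without a filter on low counts (3.16). With the GPC clusters left out of the astroglial sums 26 of the 29 were called, and *Egr1* (3.11), *Ccnd2* (1.73) and *Cdkn2c* (2.76) were not.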

How the results depend on the processing

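Of 679 values for 44 genes named in the age comparison, 598 kept their call under the alternatives, 81 kept the direction but lost the call and none reversed; 19 genes kept their call under every alternative in which they could be tested. The count of OPC genes called between ages was 207 and ranged from 151 to 289 on leaving out 1 library; it was 27 of 80 testable genes with sums thinned to the smallest, 175 with DESeq2, and 257 of 13259 without a filter, where only 45 were higher at 3m, against 93 of 207. Age changes that differed between OPC and astroglial cells numbered 549 and ranged from 296 (without 3m replicate 2) to 471 on leaving out 1 library, with 317 without P3 replicate 2 14 of 125 testable genes after thinning, and 517 without GPC in the astroglial sums. Fewer testable genes are part of the thinned counts. Genes past the fold between OPC and GPC numbered 1151, ranged from 1099 to 1322 on leaving out 1 P3 library, and were 2070 with a level of 20 CPM.

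The OPC share, 3m minus P3, was -0.426 percentage points and ranged from -0.595 to -0.215 on leaving out 1 library. It reversed to 0.326 with stricter cell filters and to 0.189 with astroglial cells and OPC as the denominator. The median UMIs per OPC differed by -170 and ranged from -1205 to 918 on leaving out 1 library, reversed at 918 without 3m replicate 2 and 722 without P3 replicate 1. The cycling share, -5.10 points, ranged from -7.66 to -3.49 on leaving out 1 library and was 0 after thinning to 1000 UMIs. The difference for *Egr1* (OPC minus astroglial, log2) ranged from -8.62 to 4.28 on leaving out 1 library, reversed at -8.62 without 3m replicate 1. The cause of these moves was not tested.

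Replicate numbers are shared by the ages in the labels only. The deviations of same-numbered OPC sums correlated at 0.180, 0.088 and 0.072, so the numbers were not taken as pairs, although each sum correlated best with its own number. With the replicate number as a block the counts were 222 and 614. With permutation within replicate number the differences stayed at -0.426, -170 and -5.10, with p = 0.5, 1.00 and 0.5 (exact permutation test, smallest possible 0.250). The adult OPC sums of 6240 to 32327 UMIs limit every statement on low genes at 3m.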

Other observations

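A few genes outside the comparisons above are given as values. *Gjc3*, a connexin gene of oligodendrocyte lineage cells, had too few UMIs for the age test. It was at 66.1, 13.8 and 23.3 CPM in P3 OPC and at 440, 402 and 160 CPM in adult OPC, against 440 and 572 CPM in the adult oligodendrocyte clusters. *Cryab*, a small heat shock protein gene, was at 33.1, 20.7 and 32.6 CPM at P3 and 251, 495 and 160 CPM at 3m. For both genes the libraries did not overlap between ages, and neither gene was tested. The 160 CPM of 3m replicate 3 is a single UMI for each gene, in 1 cell of 6240 UMIs. Among the 1099 genes tested between ages in OPC, the 3m libraries lay wholly above the P3 libraries for 136 (12.4%).

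*Elavl4*, an RNA-binding protein gene of neurons, was at 55.1, 69.1 and 60.6 CPM at P3. Of 4 haemoglobin genes, 2 had a UMI in P3 OPC and none at 3m, while the P3 endothelial cluster 7 held 17661 CPM of them.

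One P3 replicate 3 cell, singled out after its values were seen, was rich in astroglial genes. With 11796 UMIs it held 355 UMIs of *Fabp7*, 33 of *Sox9*, 27 of *Slc1a3*, 81 of *Apoe* and 10 of the 16 *Sparcl1* UMIs of all P3 OPC. Without it the age comparison called 218 genes against 207 with it.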
